A study of Mus musculus with 8 samples.

Results

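Mast cell proteases and receptors were followed in colon RNA of adult mice lacking the transcription factor STAT5b and of wild type mice. The list holds 10 genes: the chymases Mcpt1, Mcpt2, Mcpt4 and Cma1, the tryptases Tpsb2 and Tpsab1, the carboxypeptidase Cpa3, the IgE receptor subunits Fcer1a and Ms4a2, and the growth factor receptor Kit. A gene was taken where the RefSeq accession in a probe set's name maps to it, which gave 9 genes with 1 probe set each, out of 14351 genes measured. No probe set matched Tpsab1, which was not analysed here.

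The samples were 3 arrays labelled STAT5b-/-, a sample labelled REF with the wild type genotype, and 3 arrays labelled WT. STAT5b-/- replicate 1 came from a male and all other samples from females. The 2 deposited REF columns were identical within 2.47e-07 of their value, less than sampling noise, and counted as 1 sample; what REF means is not stated. The labels name neither the strain nor the mutation. By sex, STAT5b-/- replicate 1 came from another animal than STAT5b-/- replicates 2 and 3. For the other replicates the labels do not say whether they came from separate animals. The spread behind each p-value may thus be technical in large part.

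Mast cells are resident immune cells that store proteases in granules, bound to proteoglycan, and release them when IgE on their surface is cross-linked by antigen. In mice the chymases Mcpt1 and Mcpt2 mark mucosal mast cells of the gut lining, while Mcpt4, Cma1 and the tryptases are typical of mast cells of connective tissue, including the submucosa. Kit, the receptor for stem cell factor, is required for mast cell survival, and STAT5 proteins act downstream of it. In the gut wall Kit is also made by the interstitial cells of Cajal, the pacemaker cells of the muscle layer.

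The chymase genes are neighbours on chromosome 14, and the upstream sequences of Mcpt1, Mcpt4 and Cma1 are shown because the log2 fold changes of these neighbours ran from -3.81 to -0.61. RefSeq promoter windows of build GRCm38.p6 matched 7 of the 10 genes. Mcpt2, Tpsb2 and Tpsab1 had no window and were not searched. Each window ran from 250 bases before the start of the gene to 50 bases after it. The 150 bases before the start of each gene are printed 5′ to 3′ on the gene's strand, with GATAAG in capitals. Mcpt1 lies on the plus strand and the stretch is chr14:56017814-56017963. Mcpt4 and Cma1 lie on the minus strand, with the stretches chr14:56062311-56062460 and chr14:55944676-55944825.
Mcpt1: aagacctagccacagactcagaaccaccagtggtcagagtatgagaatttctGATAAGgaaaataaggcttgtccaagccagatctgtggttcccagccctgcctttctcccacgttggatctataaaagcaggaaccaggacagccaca
Mcpt4: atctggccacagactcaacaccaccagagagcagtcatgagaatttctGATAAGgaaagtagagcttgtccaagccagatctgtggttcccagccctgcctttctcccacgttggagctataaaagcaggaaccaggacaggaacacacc
Cma1: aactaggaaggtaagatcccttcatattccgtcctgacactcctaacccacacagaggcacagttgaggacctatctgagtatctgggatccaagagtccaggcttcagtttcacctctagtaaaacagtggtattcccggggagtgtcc

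The windows of Mcpt1 and Mcpt4, 300 bases each, were 83.7% identical over 295 aligned bases, against 54.8% for Mcpt1 with Cma1 and 60.2% for Mcpt4 with Cma1. GATAAG, a motif of the type bound by GATA factors, was searched on both strands and occurred in the windows of Mcpt1, Mcpt4 and Ms4a2, and in 7.44% of all 32851 windows. The STAT5-type motif TTCNNNGAA, found in 8.30% of all windows, was in none of the 7 genes' windows. Of the E-box motifs CACGTG (7.15% of all windows) and CATGTG (14.2%), the second occurred once, in the window of Fcer1a. These matches are descriptions of the letters and not measured binding.

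Each value is the deposited ratio of a probe set to the mean of the 3 WT arrays, so WT averages 1 in every gene and levels of different genes cannot be compared. Over all genes the array medians ran from 0.956 (REF) to 1.04 (WT replicate 2). Stat5b itself had ratios of 1.16, 1.17 and 1.26 in STAT5b-/-, 1.18 in REF and 1.08, 0.930 and 0.993 in WT, and stayed short of the threshold (limma adjusted p = 0.175). The part of the gene removed is not given, so the directions below rest on the labels. By limma over all genes with Benjamini-Hochberg adjustment, 1209 of 14351 genes (8.42%) were lower and 1910 (13.3%) higher in STAT5b-/- at an adjusted p under 0.05. Of these calls 61.2% were higher, against 42.1% of 392 calls after quantile normalization.

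In STAT5b-/- colon 4 of the 9 measured mast cell genes fell and 0 rose, where 8.42% of all genes were called lower. These were Mcpt1, Mcpt2, Mcpt4 and Kit, by 2.22-fold to 17.7-fold. After quantile normalization 0 of the 9 passed (limma; 2 had an unadjusted p under 0.05). The median log2 fold change of the 9 genes was -1.18, beside 0.007 over all genes, and 8 of the 9 values were below 0. In 6 of the 9 genes every STAT5b-/- array lay below every WT array, where 16.5% of all genes did. Fewer mast cells and less of these RNAs per cell cannot be told apart in RNA of whole colon.

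**Figure D1:**
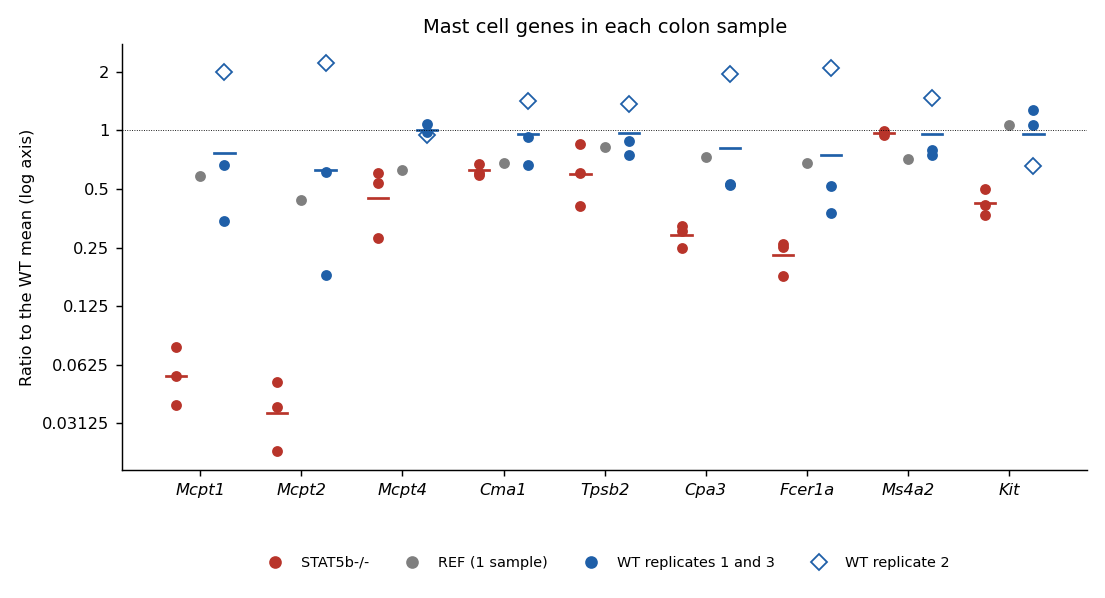
Ratio to the WT mean (log axis) of each measured mast cell gene, by sample, with STAT5b-/- at the left, REF in the middle and WT at the right. Bars are geometric means of 3 arrays, and open diamonds mark WT replicate 2, which is the highest WT array in 7 of the 9 genes. Mcpt1 and Mcpt2 in STAT5b-/- lie between 0.0225 and 0.0772.

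The mucosal chymases stood lowest. Mcpt1 (probe set NM_008570_at) had ratios of 0.0547, 0.0772 and 0.0386 in STAT5b-/-, 0.584 in REF and 0.341, 2.0 and 0.661 in WT. All 3 STAT5b-/- arrays were low and far from the controls: the lowest control array was 4.41 times the highest STAT5b-/- array. Mcpt1 was 14.0-fold lower, with a log2 fold change of -3.81 ± 0.62 (SE, n = 3 each; limma adjusted p = 0.00678). Without WT replicate 2 it was 8.69-fold lower (limma adjusted p = 0.00221), and without WT replicate 1 its log2 fold change was -4.39. It passed in every fit that left out 1 array, but not after quantile normalization, where the log2 fold change was -2.32 ± 0.81 (limma adjusted p = 0.223).

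Mcpt2 (NM_008571_at) had ratios of 0.0378, 0.0512 and 0.0225 in STAT5b-/-, 0.440 in REF and 0.180, 2.21 and 0.608 in WT. The groups did not overlap, but the WT arrays themselves differed by 12.3-fold, against 2.27-fold within STAT5b-/-. Mcpt2 was 17.7-fold lower, with a log2 fold change of -4.15 ± 0.85 (SE, n = 3 each; limma adjusted p = 0.0153). Without WT replicate 2 it was 9.39-fold lower (limma adjusted p = 0.00809), and without WT replicate 1 the log2 fold change was -5.04. The call was lost without STAT5b-/- replicate 1 (limma adjusted p = 0.0601) and without STAT5b-/- replicate 3 (limma adjusted p = 0.0600). After quantile normalization it was lost too, at -2.05 ± 1.45 on the log2 scale (limma adjusted p = 0.606). Changes of at least 8-fold downward, as in Mcpt1 and Mcpt2, were seen in 0.376% of all genes.

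WT replicate 2 set much of the WT spread. It was the highest of the WT arrays in 7 of the 9 genes, where it was so in 48.9% of all genes. It lay at least 2-fold above the geometric mean of the other WT arrays in 4 of them, where 7.80% of all genes did. These were Mcpt2 (6.69-fold), Fcer1a (4.75-fold), Mcpt1 (4.21-fold) and Cpa3 (3.70-fold). Kit went the other way, at 0.564 of the other WT arrays, and Mcpt4 was level at 0.918. With REF in place of WT replicate 2, a control set chosen after seeing the data, Mcpt1 was 9.31-fold and Mcpt2 10.3-fold lower (limma adjusted p = 0.000420 and 0.00194).

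Among the chymases of connective tissue mast cells, Mcpt4 fell and Cma1 did not pass. Mcpt4 (NM_010779_at) had ratios of 0.280, 0.535 and 0.604 in STAT5b-/-, 0.623 in REF and 0.978, 0.943 and 1.08 in WT. Here the WT arrays were close together and the STAT5b-/- arrays spread, with replicate 1, the male, lowest, and REF lay only 1.03 times above the highest STAT5b-/- array. Mcpt4 was 2.22-fold lower, with a log2 fold change of -1.15 ± 0.29 (SE, n = 3 each; limma adjusted p = 0.0308). The call was lost without STAT5b-/- replicate 2 (limma adjusted p = 0.0655), WT replicate 1 (0.0686) or WT replicate 3 (0.0902), and with REF in place of WT replicate 2 (0.0623).

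Cma1 (NM_010780_at) had ratios of 0.591, 0.607 and 0.671 in STAT5b-/-, 0.677 in REF and 0.921, 1.42 and 0.663 in WT. The STAT5b-/- arrays were tight, and WT replicate 3 and REF stood beside them. The log2 fold change was -0.61 ± 0.27 (SE, n = 3 each; limma adjusted p = 0.156), with a 95% interval of -1.25 to 0.02, and passed without WT replicate 3 (limma adjusted p = 0.0485) but in no other fit run. Mcpt1, Mcpt2 and Mcpt4 are related in sequence, and how far their probes tell them apart was not tested.

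Tpsb2 (NM_010781_at), a tryptase stored as a heparin-bound tetramer, had ratios of 0.410, 0.603 and 0.850 in STAT5b-/-, 0.817 in REF and 0.747, 1.37 and 0.886 in WT. STAT5b-/- replicate 3 lay within the WT range, so the groups overlapped. The log2 fold change was -0.70 ± 0.32 (SE, n = 3 each; limma adjusted p = 0.177), with a 95% interval of -1.47 to 0.07.

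Cpa3 (NM_007753_at), the granule carboxypeptidase, had ratios of 0.249, 0.323 and 0.304 in STAT5b-/-, 0.726 in REF and 0.521, 1.95 and 0.533 in WT. The groups did not overlap, and REF, WT replicate 1 and WT replicate 3 were near each other while WT replicate 2 stood apart. Against all 3 WT arrays Cpa3 was 2.81-fold lower without passing, at a log2 fold change of -1.49 ± 0.50 (SE, n = 3 each; limma adjusted p = 0.0788). Without WT replicate 2 the difference was smaller, 1.81-fold, and passed, at -0.86 ± 0.15 (SE; limma adjusted p = 0.00878). With REF in its place Cpa3 was 2.02-fold lower (limma adjusted p = 0.00396). Cpa3 did not pass in any other fit without 1 array (limma adjusted p = 0.0638 to 0.216) or after quantile normalization (0.598).

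Mcpt2 was also set against Cpa3 within each array. The log2 ratio of Mcpt2 minus that of Cpa3 was -2.72, -2.66 and -3.75 in STAT5b-/-, -0.72 in REF and -1.54, 0.18 and 0.19 in WT. The mean difference between the groups was -2.66, with STAT5b-/- at -3.04 ± 0.62 and WT at -0.39 ± 1.00 (SD, n = 3 each). The groups did not overlap, and an exact two-sided permutation test gave p = 0.1, the smallest that 3 against 3 allows. With WT replicate 2 left out the difference was -2.37, and after quantile normalization it was -1.11 (exact permutation p = 0.4).

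**Figure D2:**
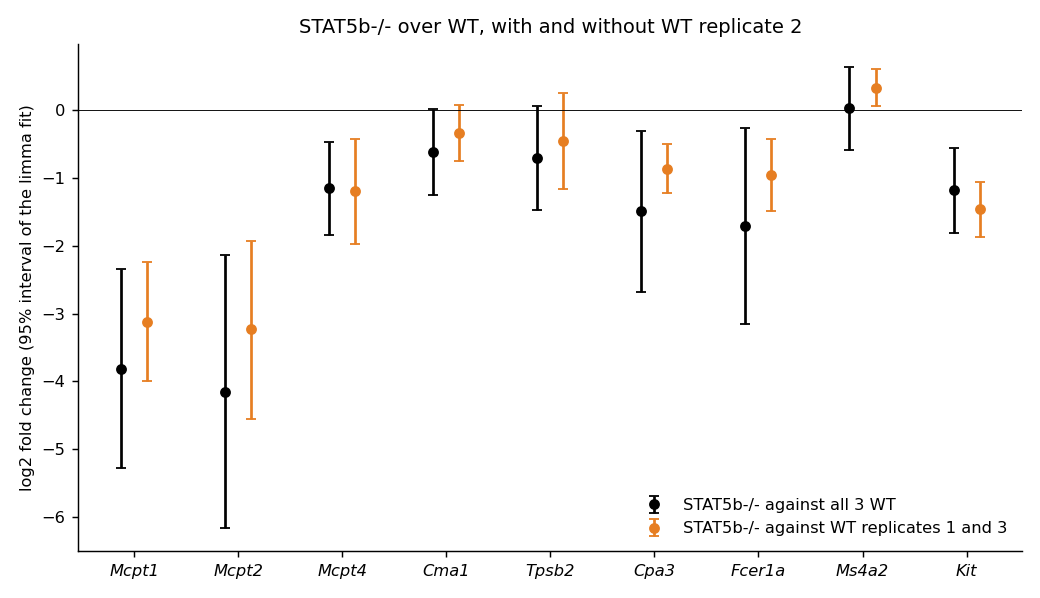
Log2 fold change of STAT5b-/- over WT for each measured mast cell gene, with 95% intervals of the limma fit, against all 3 WT arrays (black) and against WT replicates 1 and 3 (orange). Without WT replicate 2 the intervals of Cpa3 and Fcer1a narrow and their changes shrink to -0.86 and -0.96.

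Neither IgE receptor subunit passed against all 3 WT arrays. Fcer1a (NM_010184_at), the subunit that binds IgE, had ratios of 0.253, 0.262 and 0.179 in STAT5b-/-, 0.680 in REF and 0.520, 2.10 and 0.376 in WT. The pattern was that of Cpa3: separate groups, with WT replicate 2 high. The log2 fold change was -1.71 ± 0.61 (SE, n = 3 each; limma adjusted p = 0.0922), and -0.96 ± 0.22 without WT replicate 2 (SE; limma adjusted p = 0.0239). With REF in place of WT replicate 2, Fcer1a was 2.24-fold lower (limma adjusted p = 0.01). Fcer1a did not pass in any other fit without 1 array (limma adjusted p = 0.056 to 0.229) or after quantile normalization (0.714). Ms4a2 (NM_013516_at), the signal-amplifying subunit, had ratios of 0.947, 0.989 and 0.981 in STAT5b-/-, 0.713 in REF and 0.750, 1.46 and 0.792 in WT. All 3 STAT5b-/- arrays lay inside the WT range. Its log2 fold change was 0.03 ± 0.26 (SE, n = 3 each; limma adjusted p = 0.956), with a 95% interval of -0.59 to 0.64. Against REF with WT replicates 1 and 3 it was higher by 0.37 ± 0.10 on the log2 scale (limma adjusted p = 0.0249), where 18.2% of all genes were called higher.

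Counted over those control sets, 6 of the 9 genes were lower without WT replicate 2, where 9.47% of all genes were. With REF in its place 5 were lower, where 11.0% of all genes were.

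Kit (NM_021099_at) had ratios of 0.367, 0.502 and 0.414 in STAT5b-/-, 1.06 in REF and 1.27, 0.658 and 1.07 in WT. The groups did not overlap, and WT replicate 2, the highest WT array for Mcpt1, Mcpt2 and Cpa3, was the lowest here. Kit was 2.27-fold lower, with a log2 fold change of -1.18 ± 0.26 (SE, n = 3 each; limma adjusted p = 0.0202), and 2.75-fold lower without WT replicate 2 (limma adjusted p = 0.00221). The call was lost without STAT5b-/- replicate 1 (limma adjusted p = 0.0820), STAT5b-/- replicate 3 (0.0723), WT replicate 1 (0.0502) or WT replicate 3 (0.0673). Its ligand stem cell factor (Kitl) had ratios of 0.667, 0.600 and 0.575 in STAT5b-/-, 0.911 in REF and 0.990, 0.983 and 1.03 in WT. Kitl fell by 0.71 ± 0.12 on the log2 scale (SE, n = 3 each; limma adjusted p = 0.00756), a small difference with well separated groups.

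Of the other markers of interstitial cells of Cajal, 1 of 3 was lower, where 8.42% of all genes were. Without WT replicate 2 it was 2 of 3, where 9.47% of all genes were lower. Thbs4, a matrix protein of the thrombospondin family, had ratios of 0.0248 to 0.0455 in STAT5b-/-, 0.984 in REF and 0.789 to 1.21 in WT. Etv1, a transcription factor of these cells, differed by 0.37 ± 0.23 on the log2 scale, not past the threshold (limma adjusted p = 0.313). Gucy1b1, a subunit of the nitric oxide receptor, differed by -0.51 ± 0.16 (limma adjusted p = 0.0632), and passed without WT replicate 2 (limma adjusted p = 0.0367). Smooth muscle markers were called in 0 of 5, with log2 fold changes of -0.29 to 0.01. The part of these cells in the Kit result was not tested.

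REF, the further wild type sample, was set against WT as 1 sample against 3. For 7 of the 9 genes REF lay within the WT range, the exceptions being Mcpt4 and Ms4a2, where it lay below. No gene of the 14351 passed (0% called by limma), and 208 (1.45%) had an unadjusted p under 0.05. Among the 9 that was Mcpt4, with a log2 difference of -0.68 ± 0.21 (limma unadjusted p = 0.0277, adjusted p = 0.998). The 9 genes had a median log2 difference of -0.39 for REF over WT, beside -0.05 over all genes. In 6 of the 9 genes all STAT5b-/- arrays lay below REF and all WT arrays, where 14.0% of all genes did. Both comparisons share the WT arrays.

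In gene order on chromosome 14, the locus runs from Cma1 to the granzyme Gzmb and holds 15 coding genes, of which 13 were measured. Of these, 3 of 13 fell, namely Mcpt1, Mcpt2 and Mcpt4, where 8.42% of all genes were called lower. Genes flanking the locus went different ways. Before Cma1, Cbln3 fell by 1.14 ± 0.20 on the log2 scale (limma adjusted p = 0.00909). Khnyn, between Cbln3 and Cma1, rose by 0.48 ± 0.13 (limma adjusted p = 0.0428). After Gzmb, Atp12a was at the floor of 0.01 in all 3 STAT5b-/- arrays, against 0.779 in REF and 0.523 to 1.54 in WT. Rnf17 and Cenpj, beyond Atp12a, did not pass (limma adjusted p = 0.923 and 0.17). Mcpt8, a basophil protease next to Mcpt4, had ratios of 0.701, 0.816 and 0.827 in STAT5b-/-, 0.575 in REF and 0.564, 1.90 and 0.538 in WT. WT replicate 2 was its highest WT array, as for Mcpt1 and Mcpt2, and its log2 fold change was -0.09 ± 0.47 (limma adjusted p = 0.914), and 0.50 without WT replicate 2 (limma adjusted p = 0.0350). Cathepsin G (Ctsg), the next gene, was flat at -0.01 ± 0.14 (limma adjusted p = 0.964). Of 7 granzyme genes, whose products cytotoxic lymphocytes use, 0 were called by limma and 0 had an unadjusted p under 0.05, with log2 fold changes of -0.48 to 1.05. With REF in place of WT replicate 2 Gzmb was higher by 1.41 on the log2 scale (limma adjusted p = 0.0499).

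**Figure D3:**
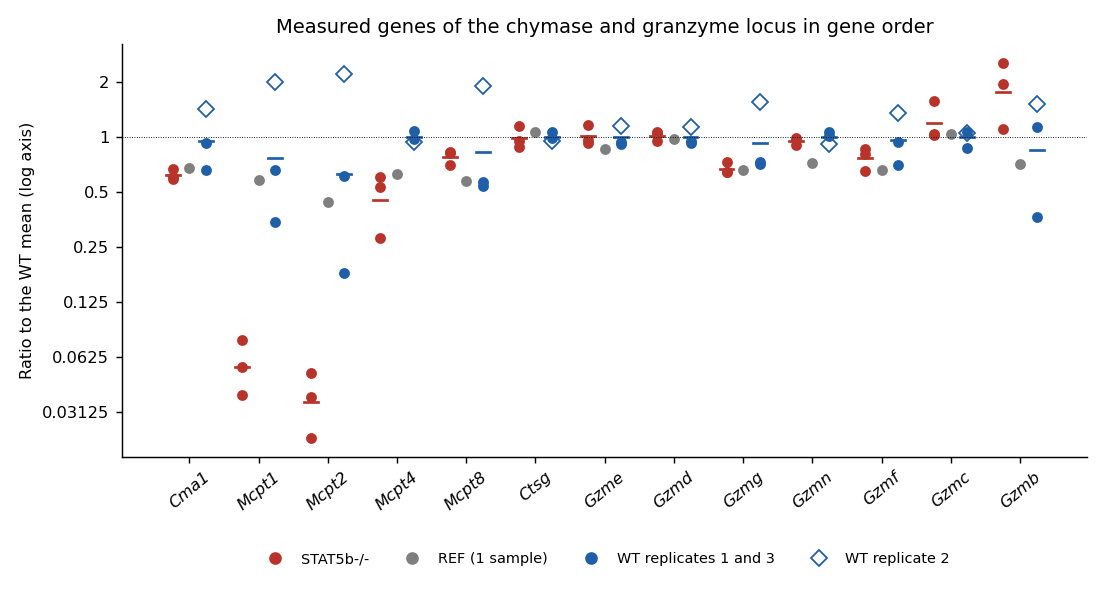
Ratio to the WT mean (log axis) of the 13 measured genes from Cma1 to Gzmb, in gene order and not to distance, with STAT5b-/- at the left, REF in the middle and WT at the right of each gene. Bars are geometric means of 3 arrays. Mcpt1 and Mcpt2 are lowest in STAT5b-/-, and Mcpt4, between them and Mcpt8, was also called lower. Mcpt8 and the granzymes were not.

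On chromosome 17 the tryptase Tpsb2 lies beside Tpsg1, which encodes a membrane-anchored tryptase. Tpsg1 had ratios of 0.139, 0.261 and 0.215 in STAT5b-/-, 0.874 in REF and 0.970, 1.12 and 0.909 in WT. All STAT5b-/- arrays were low and the control arrays were close together. Tpsg1 fell by 2.33 ± 0.24 on the log2 scale (SE, n = 3 each; limma adjusted p = 0.00129), and the call held without WT replicate 2 (limma adjusted p = 0.00215).

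Further genes of mast cell granules changed in 4 of 12, 3 lower and 1 higher, with a list median of -0.05. Over all genes 8.42% were called lower and 13.3% higher, so the 1 higher of 12 is no more than that share. Beside Tpsg1, the granule proteoglycan serglycin (Srgn) fell by 1.13 ± 0.18 and Rab27b, a GTPase of granule docking, by 1.83 ± 0.13 on the log2 scale (limma adjusted p = 0.00607 and 0.000412). The lysosomal protease cathepsin D (Ctsd) rose by 0.68 ± 0.14 (limma adjusted p = 0.0172). Hdc, which makes histamine, and Slc18a2, which loads it into granules, differed by -0.10 ± 0.25 and 0.24 ± 0.22 on the log2 scale, short of the threshold (limma adjusted p = 0.819 and 0.509). Srgn and Rab27b are also made by other secretory and blood cells.

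Transcription factors of mast cells were lower in 1 of 10 and higher in 0, near the 8.42% of all genes called lower, with a list median of 0.08. Gata1 had ratios of 0.455, 0.708 and 0.504 in STAT5b-/-, 0.643 in REF and 1.19, 1.03 and 0.777 in WT, and REF lay among the STAT5b-/- arrays. Gata1 fell by 0.85 ± 0.23 (limma adjusted p = 0.0398), and lost the call without WT replicate 2 (limma adjusted p = 0.0604). Gata2, which mast cells need to develop, differed by -0.48 ± 0.16 without passing (limma adjusted p = 0.0749), and Mitf, which acts with Kit, 0.15 ± 0.43 (limma adjusted p = 0.848). Against all 3 WT arrays Ikzf2 differed by 1.23 ± 0.48 without passing (limma adjusted p = 0.12). Without WT replicate 2, 0 of 10 were lower and 1, Ikzf2, was higher, by 1.80 ± 0.25 (limma adjusted p = 0.0038). With REF in its place Ikzf2 was higher by 1.90 ± 0.22 (limma adjusted p = 0.000861).

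IgE receptor signalling genes were lower in 3 of 14 and higher in 0, where 8.42% of all genes were called lower. The list median was -0.35. The inhibitory Fc receptor Fcgr2b fell by 1.5 ± 0.15, the kinase Btk by 0.97 ± 0.23 and the lipid phosphatase Inpp5d (SHIP) by 0.88 ± 0.15 on the log2 scale (limma adjusted p = 0.00112, 0.0263 and 0.00870). B cells and macrophages use these 3 genes as well. The shared gamma subunit Fcer1g, with a log2 fold change of -0.53 ± 0.21, and the kinases Lyn and Syk, with -0.32 ± 0.12 each, did not pass (limma adjusted p = 0.118, 0.110 and 0.119).

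Growth factors and receptors that act on mast cells were lower in 6 of 15 and higher in 0, with a list median of -0.27. Over all genes 8.42% were called lower. Beside Kitl, the common beta receptor chain Csf2rb fell by 1.47 ± 0.22, and the alarmin Il33 by 1.33 ± 0.22 (limma adjusted p = 0.00499 and 0.00749). The receptor of Il33, Il1rl1, fell by 1.01 ± 0.24, and Il4 by 1.03 ± 0.26 on the log2 scale (limma adjusted p = 0.0250 and 0.0341). Il10 fell by 1.98 ± 0.24 (limma adjusted p = 0.00228), yet its REF ratio of 0.293 was near the 0.232 to 0.266 of STAT5b-/-. With REF in place of WT replicate 2, Il10, Il1rl1 and Il4 lost the call (limma adjusted p = 0.0540, 0.0782 and 0.0812). Il3 and Il9, cytokines of mast cell growth, differed by -0.26 ± 0.24 and -0.15 ± 0.31 on the log2 scale, short of the threshold (limma adjusted p = 0.505 and 0.781).

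Genes by which mast cell progenitors home to the gut were lower in 4 of 9 and higher in 0. The list median was -0.84, and 8.42% of all genes were called lower. The integrin chain Itga4 fell by 0.95 ± 0.17, its ligand Vcam1 by 0.84 ± 0.17, the chemokine receptor Ccr2 by 0.89 ± 0.24 and the chemokine Cxcl1 by 1.27 ± 0.28 on the log2 scale (limma adjusted p = 0.00965, 0.0146, 0.0388 and 0.0208). Ccr2 lost the call without WT replicate 2 (limma adjusted p = 0.0592). The partner chain Itgb7 differed by -0.58 ± 0.31 without passing (limma adjusted p = 0.239). Eicosanoid enzymes were lower in 2 of 7 and higher in 0, beside 8.42% of all genes called lower, with a list median of -0.55. Hpgds, which makes prostaglandin D, fell by 1.76 ± 0.20 and the leukotriene cofactor Alox5ap by 1.68 ± 0.16 (limma adjusted p = 0.00194 and 0.000901).

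Of the 20 genes called in these 6 lists, 12 passed in every fit without 1 array. The other 8 lost the call without at least 1 array: Btk (highest limma adjusted p = 0.0779), Ccr2 (0.131), Ctsd (0.0738), Cxcl1 (0.0777), Gata1 (0.131), Il1rl1 (0.0751), Il4 (0.120) and Vcam1 (0.0622, without STAT5b-/- replicate 1 or 2). After quantile normalization 5 of the 20 passed, namely Tpsg1, Rab27b, Fcgr2b, Hpgds and Alox5ap.

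**Figure D4:**
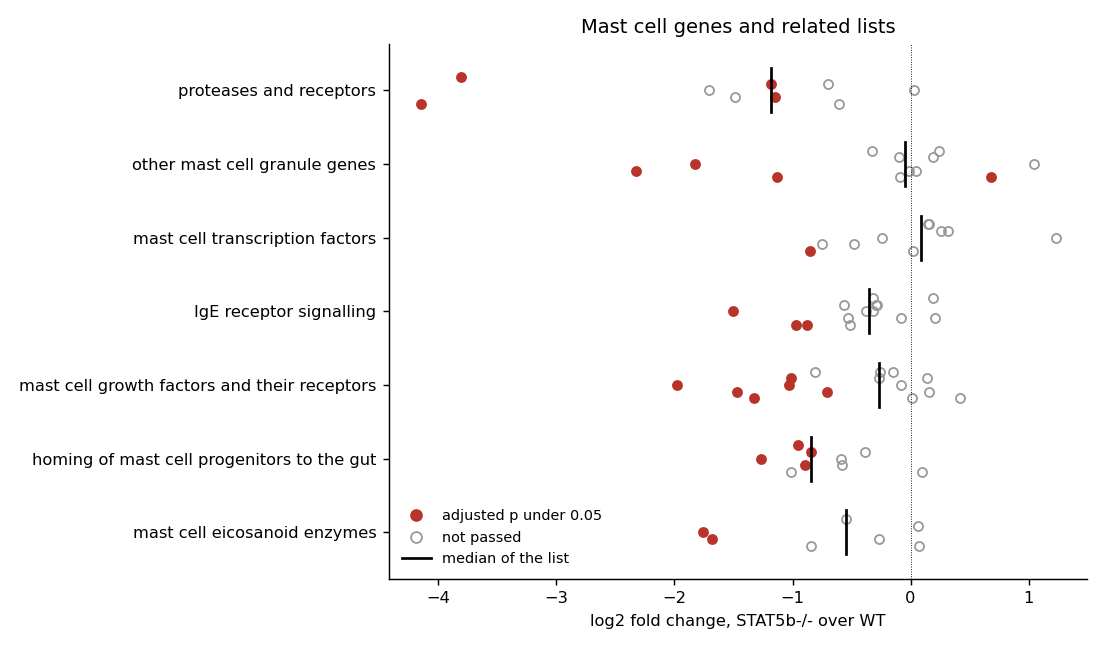
Log2 fold change of STAT5b-/- over WT for each measured gene of the mast cell proteases and receptors and of 6 related lists; filled red points passed limma at an adjusted p under 0.05, and black bars are list medians. Among the lists plotted, the proteases and receptors have the lowest median, -1.18, and the points for Mcpt1 and Mcpt2 lie farthest to the left. Macrophage markers and B and plasma cell markers, which are not plotted, had lower medians, -1.54 and -1.63.

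Markers of other cells were counted beside the mast cell genes. Over all genes 8.42% were called lower and 13.3% higher. General leukocyte markers were lower in 4 of 5, with mean ratios per array of 0.498 to 0.600 in STAT5b-/-, 0.886 in REF and 0.899 to 1.15 in WT. Macrophage markers were lower in 4 of 5, with 0.453 to 0.622 in STAT5b-/-, 1.03 in REF and 0.888 to 1.21 in WT. Eosinophil markers were lower in 1 of 5, with mean ratios of 0.480 to 0.616 in STAT5b-/-, 0.639 in REF and 0.843 to 1.23 in WT. Basophil markers were lower in 1 of 4, with 0.664 to 0.695 in STAT5b-/-, 0.765 in REF and 0.852 to 1.21 in WT. B and plasma cell markers were lower in 2 of 5, with 0.195 to 0.377 in STAT5b-/-, 0.732 in REF and 0.667 to 1.45 in WT. T cell markers went both ways, 3 higher and 1 lower of 5, with mean ratios of 1.35 to 1.38 in STAT5b-/-, 0.837 in REF and 0.911 to 1.05 in WT. Epithelial markers, which define the labelled tissue, were higher in 2 of 5 and lower in 0, with 1.26 to 1.43 in STAT5b-/-, 1.08 in REF and 0.974 to 1.03 in WT; ratios do not show their level. None of these genes was at the floor in any array. In WT replicate 2 the mean ratio of the mast cell genes was 1.57. It was 1.23 for eosinophil, 1.21 for basophil and 1.21 for macrophage markers. For T cell markers it was 1.04, for epithelial markers 1.03, for general leukocyte markers 0.953 and for B and plasma cell markers 0.888. Over the 6 related lists it ran from 1 for growth factors and receptors to 1.35 for homing genes. The part of other leukocytes in the mast cell result was not tested.

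Genes were ranked by likeness to the mean log2 ratio of Mcpt1 and Mcpt2 over the 7 samples. The list itself, predicted and clone-named genes, and symbols that open with a letter and a digit were left out. The nearest were Tmem184c (Pearson's r = 0.986), the vasopressin receptor Avpr1a (0.981), Palmd (0.980), the aminopeptidase Lap3 (0.980) and Hpgds (0.977). Of the list itself, Cpa3 (r = 0.93) and Fcer1a (0.91) came nearest, then Tpsb2 (0.74), Cma1 (0.71), Mcpt4 (0.70), Kit (0.67) and Ms4a2 (0.17). These correlations span both genotypes and are descriptions only. The changes of the 5 genes were smaller than those of the mucosal chymases, from -0.53 for Lap3 to -1.76 for Hpgds on the log2 scale.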

How the data were processed

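RNA of adult mouse colon was measured on short-oligonucleotide expression arrays after amplification from 100 ng, per the labels' protocols. RMA is named in the submitters' processing notes; its version, the array type and the probe set build are not given in the sources used here. The deposited values are linear ratios of each probe set to the mean of the 3 WT arrays, which is 1 to within 1.87e-07 in all 26180 probe sets, with a floor of 0.01. Neither brightness nor detection could be judged. Accessions were matched to the RefSeq gene table of GRCm38.p6: 15228 probe sets had 1 symbol and 10952 none, giving 14351 genes.

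Ratios were log2-transformed with no pseudocount, and probe sets of a gene averaged. STAT5b-/- was compared with WT over those 6 arrays with limma 3.58.1 (lmFit, eBayes; R 4.3.3), Benjamini-Hochberg over all genes and a threshold of 0.05. REF was compared with WT likewise. Folds come from means of log2 ratios. The fit was tested on simulated data. Promoter windows were aligned with Biopython 1.88, and symbols other than the listed genes are named where they passed the threshold, or where they had the smallest p of a list, the nearest pattern or a role beside a named result. Genes in the last class (Thbs4, Etv1, Gucy1b1, Gzmb, Cbln3, Khnyn, Atp12a, Rnf17, Cenpj, Ctsg, Mcpt8, Cacna1h, Prss28, Prss29, Sstr5, Hdc, Slc18a2, Mitf, Ikzf2, Fcer1g, Lyn, Syk, Il3, Il9, Itgb7) were chosen after their values were seen. The genes and lists were chosen with earlier results of these data known. Same-numbered arrays did not deviate together (r = 0.04, -0.10 and -0.19), so the numbers were not taken as pairs. Alternatives left out each array, changed normalization, probe set rule, controls, sex term, floor and variance model.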

Additional observations from a re-analysis of the deposited data

How the results depend on the processing

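The count of 4 mast cell genes called lower became 0 after quantile normalization (limma; 2 had an unadjusted p under 0.05, and 8 of 9 values were below 0) and 2 with sex as a covariate, and ranged from 2 to 6 when 1 array was left out. Calls over all genes, 3119, became 392 after quantile normalization, 2039 with the replicate number as a block and 1914 with sex as a covariate, and ranged from 1716 to 3551 when 1 array was left out; fits without an array have fewer samples. Under quantile normalization the log2 fold changes were -2.32 for Mcpt1 and -2.05 for Mcpt2 (limma adjusted p = 0.223 and 0.606). The SE of Mcpt2 was 0.85 before this step and 1.45 after it. Quantile normalization gives all arrays the same distribution. As deposited, the SD of the log2 ratios over all probe sets was 0.737, 0.7 and 0.646 in STAT5b-/-. In WT it was 0.321, 0.363 and 0.289. The part of this difference in the lost calls was not tested. The sex term falls on STAT5b-/- replicate 1 alone, the only male. That fit gave the same counts as the fit without that array and cannot separate sex from the array. With the replicate block 3 mast cell genes were lower and Kit lost its call (limma adjusted p = 0.0600). Ms4a2 changed sign without WT replicate 1 (-0.14) and WT replicate 3 (-0.11); it reached 0.33 without WT replicate 2 and 0.37 with REF in its place. Median centring, the probe set rule, the floor and robust eBayes left 4 genes lower, and adding REF to WT gave 5. Mcpt2 minus Cpa3 stayed below 0, from -3.23 to -2.30 without 1 array and -1.11 after quantile normalization (exact permutation p = 0.4, against 0.1 as reported). REF against WT gave 0 calls in every alternative run by limma. The 3 arrays a group limit the precision, and without intensities signal over background is unknown.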
